A study of Homo sapiens with 40 samples.

Results

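The CDK inhibitor genes are 8 genes whose protein products brake the cyclin-dependent kinases (CDKs) that drive the cell cycle. They were chosen by symbol, CDKN1A, CDKN1B, CDKN1C, CDKN2A, CDKN2B, CDKN2C, CDKN2D and CDKN3, among 60708 genes counted by RNA-seq in 24 libraries, and all 8 symbols matched 1 gene each. The rule itself uses names and no measured value, although it was written with earlier results of these data known. The libraries fall into 8 groups of 3. MI stands for MCF-10A, an immortalised human breast epithelial line that does not form tumours, and MII for its HRAS-transformed derivative MCF-10AneoT, labelled MCF-10A-HRAS. Both were grown as spheres in ultra-low attachment plates, without (Ctrl) or with TGFβ1 (TGFβ) at 2.5 ng/ml for 16 h, which gives MI Ctrl, MI TGFβ, MII Ctrl and MII TGFβ. The other 4 groups are monolayers of MDA-MB-231, a triple-negative breast cancer line, without added TGFβ: WT, which was untreated, SLUG KO, in which CRISPR/Cas9 with a guide to exon 1 of SNAI2 was used, Csi, which received a scrambled control siRNA, and siSMAD2/3/4, which received siRNAs to the TGFβ signal transducers SMAD2, SMAD3 and SMAD4. SLUG KO cells were grown out from single cells, and the sources used here do not say whether the 3 libraries come from 1 clone or several. The methods describe the study's results in general as means of independent biological repeats, but the sample labels do not say how the 3 libraries of a group relate, so p-values measure the spread between these libraries.

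CDK inhibitors form a pair of families. The CIP/KIP proteins p21 (CDKN1A), p27 (CDKN1B) and p57 (CDKN1C) bind cyclin-CDK complexes of several phases, and the INK4 proteins p16 (CDKN2A, which also encodes p14ARF), p15 (CDKN2B), p18 (CDKN2C) and p19 (CDKN2D) bind CDK4 and CDK6 and keep D-type cyclins from activating them. CDKN3 (KAP) differs from both, as it is a phosphatase that removes an activating phosphate from CDK2, and its mRNA is known to rise in dividing cells. In epithelial cells TGFβ is known to raise p15 and p21 through SMAD proteins as part of its growth-slowing action.

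Total counts per library ranged from 14124688 to 38406952. Levels are given as CPM, counts scaled to a common library size, after TMM scaling over the 24 libraries, and levels of different genes are set side by side only as FPKM, CPM per kilobase of summed exon length. Log2 fold changes come from edgeR's quasi-likelihood test on the libraries compared, with their standard error (SE) and a p adjusted by Benjamini-Hochberg over all genes tested, and a gene is called changed at an adjusted p under 0.05. Because each comparison has its own scaling, a ratio of the levels may differ from the fitted fold change by up to 0.0909 on the log2 scale for these genes. With 3 libraries on each side, the smallest p of an exact two-sided permutation test is 0.1. Of the 3 WT libraries, replicate 2 stood apart: its chi-square per gene against the other two was 235 and 288, where pairs in the other 7 groups gave 1.92 to 13.1, and the comparisons with WT were run with and without it. SNAI2 RNA, which encodes SLUG, was at 61.8 ± 3.59 CPM (SD, n = 3) in the libraries labelled SLUG KO and 28.3 ± 6.62 CPM in WT, thus higher under the SLUG KO label (log2 fold change 1.10, SE 0.214, edgeR adjusted p = 0.0399). A small insertion or deletion in exon 1 need not lower the RNA, so this count does not check the knockout, and the group is called by its label. According to the study's methods, knockout clones were checked by ddPCR and immunoblotting. SMAD2 fell by 1.92 on the log2 scale in siSMAD2/3/4 (SE 0.0522, edgeR adjusted p = 2.65e-22), SMAD4 fell by 1.72 (SE 0.0621, adjusted p = 1.50e-19) and SMAD3 fell by 0.69 (SE 0.0406, adjusted p = 9.70e-15). The summed level of 7 basal epithelial markers was 1700 to 6290 CPM in the sphere libraries and 683 to 1050 CPM in the MDA-MB-231 libraries. By contrast, 4 mesenchymal markers summed to 163 to 386 CPM and 2520 to 3290 CPM. Among the basal markers, KRT5, KRT14, KRT17 and CDH1 were higher in every sphere group than in any MDA-MB-231 group. LAMB3, DSP and TP63 were not. Mean LAMB3 was 467 CPM in MII Ctrl and 608 in SLUG KO. Mean DSP was 338 CPM in MII Ctrl and 504 in siSMAD2/3/4, and mean TP63 was 0.621 CPM in MII Ctrl and 3.64 in Csi. Of the receptors that triple-negative tumours lack, ESR1 and PGR had means of 0 to 0.317 CPM in the MDA-MB-231 groups, and the 3 receptors with ERBB2 summed to 71.3 to 160 CPM there and 217 to 389 CPM in the spheres. Among 6 markers of other cell types, the blood cell genes PTPRC, CD3E and CD68 had means of at most 0.395 CPM in every group. The 6 summed to 94.3 to 117 CPM in the MII libraries and 17.6 to 20.9 in the MI libraries, chiefly through the endothelial gene PECAM1 (95.3 CPM in MII TGFβ and 10.5 in MI TGFβ), and the fibroblast gene COL1A1 was at 38.1 CPM in siSMAD2/3/4 and 22.4 in Csi. Their part in the results was not tested. In bulk libraries, fewer cells that express a gene and less RNA per cell cannot be told apart.

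CDKN3 and CDKN2C rose together with TGFβ in MII-spheres and fell together with siSMAD2/3/4, while CDKN1A rose with TGFβ alone, so the promoters of these 3 genes are shown first. The sequences are RefSeq entries on GRCh38.p14, each running from 250 bases before to 50 bases after a start site. Entries were matched for 7 of the 8 genes, 10 entries in all, and for CDKN1C there was none. Capitals mark matches on either strand to TTTGAA, the cell cycle homology region (CHR) element of late cell-cycle genes, to GCGGGAA, an E2F site, and to CAGAC, a SMAD-binding box. The CDKN3 entry is chr14:54396757-54397056 on the plus strand, one CDKN2C entry is chr1:50968456-50968755 on the plus strand, which starts 1539 bases upstream of the canonical transcript, another is chr1:50969995-50970294 on the plus strand at the canonical start, and the CDKN1A entry is chr6:36678464-36678763 on the plus strand.
CDKN3: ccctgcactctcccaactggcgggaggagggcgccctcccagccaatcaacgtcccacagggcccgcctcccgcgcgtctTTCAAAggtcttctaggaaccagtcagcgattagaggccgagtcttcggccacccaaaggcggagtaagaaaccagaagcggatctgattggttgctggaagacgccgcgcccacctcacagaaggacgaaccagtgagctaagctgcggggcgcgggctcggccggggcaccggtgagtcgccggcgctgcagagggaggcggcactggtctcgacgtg
CDKN2C, upstream start: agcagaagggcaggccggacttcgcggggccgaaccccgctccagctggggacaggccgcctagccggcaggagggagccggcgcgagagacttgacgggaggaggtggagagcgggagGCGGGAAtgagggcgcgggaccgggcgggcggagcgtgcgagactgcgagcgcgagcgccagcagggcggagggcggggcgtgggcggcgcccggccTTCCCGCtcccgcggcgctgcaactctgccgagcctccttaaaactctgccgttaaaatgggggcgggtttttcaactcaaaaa
CDKN2C, canonical start: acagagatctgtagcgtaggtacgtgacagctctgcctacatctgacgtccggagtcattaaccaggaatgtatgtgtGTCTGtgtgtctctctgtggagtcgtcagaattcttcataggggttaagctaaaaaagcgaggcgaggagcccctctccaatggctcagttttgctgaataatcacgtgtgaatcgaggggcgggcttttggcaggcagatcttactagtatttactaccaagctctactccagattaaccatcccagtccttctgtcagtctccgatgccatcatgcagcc
CDKN1A: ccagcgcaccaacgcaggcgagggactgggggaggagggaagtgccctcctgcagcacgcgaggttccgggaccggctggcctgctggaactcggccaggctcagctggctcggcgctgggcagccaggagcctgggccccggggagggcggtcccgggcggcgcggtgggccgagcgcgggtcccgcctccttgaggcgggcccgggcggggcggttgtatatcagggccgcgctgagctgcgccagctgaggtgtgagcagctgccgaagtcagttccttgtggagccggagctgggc
The CDKN3 promoter held 1 CHR match 170 bases before the start site, and CHR matches stood in 15.2% of all 35116 promoters of this length. The upstream CDKN2C start held 2 E2F matches, the nearer of them 34 bases before the start, and 6.55% of promoters held any. The canonical CDKN2C start held 1 SMAD-box match, a motif found in 45.3% of promoters, and the remaining CDKN2C entry, chr1:50960495-50960794 on the plus strand and not shown, held 3, so that the 3 entries hold 4 in all. Of the entries not shown, one of CDKN2A and that of CDKN2D held 1 SMAD-box match each, and the CDKN1A promoter held no match to these 3 motifs and 4 GC boxes (GGGCGG, in 45% of promoters; not capitalised). A match describes the letters of the window only, and the data here do not measure binding.

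CDKN2A and CDKN2B, the p16 and p15 genes, had a count of 0 in every one of the 24 libraries. Over all libraries that is 0 of 589045808 counts, which allows a level of up to 0.00509 CPM at a floor of 3 counts; within a library the floor ranged from 0.0781 to 0.212 CPM. The limits cover counting error only. CDKN2A (ENSG00000147889.18) lies on the minus strand of chromosome 9 from 21967752 to 21995301 on GRCh38 and CDKN2B (ENSG00000147883.12) from 22002903 to 22009305. Of the exon bases of CDKN2A, 15.3% are shared with the antisense gene CDKN2B-AS1, and the counting did not use strand, so reads from those bases could not be assigned; none of the exon bases of CDKN2B are shared. No TGFβ effect on p15 or p16 RNA could therefore be measured in either sphere line, and MDA-MB-231 received no added TGFβ.

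Counts of 0 extended to neighbouring genes by different distances in the 3 lines. CDKN2A-DT, a noncoding gene beside CDKN2A, was at 0 in all 24 libraries, and CDKN2B-AS1 was at 0 in the 18 libraries other than Csi and siSMAD2/3/4, which summed to 2 and 9 counts. MTAP, a methionine-salvage enzyme gene whose start site lies 193 kb from that of CDKN2A, summed to 2 and 8 counts in MI Ctrl and MI TGFβ and to 37 and 17 in MII Ctrl and MII TGFβ. Farther out the spheres were well above 0. KLHL9, a ubiquitin ligase adaptor gene 660 kb away by the same measure, gave 791 to 2591 counts per sphere library, and DMRTA1 on the other side gave 38 to 169. In WT and SLUG KO, by contrast, KLHL9, MIR31HG, IFNE, MTAP, DMRTA1 and ELAVL2 were at 0 in all 6 libraries. Of 23 protein-coding genes within 1 Mb of CDKN2A, many of them interferon genes that few cells express, 22 were at 0 across the 6 WT and SLUG KO libraries, all except FOCAD, against 12 in the 6 MI and 12 in the 6 MII libraries. The Csi and siSMAD2/3/4 libraries carry the same cell line name but listed low counts for some of these genes, with 20 to 41 counts of KLHL9 per library and 16 of the 23 genes at 0. RNA counts alone cannot tell absent DNA from a silent gene, and the ATAC-seq samples of the spheres, whose reads come from DNA, were not analysed here.

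The other 6 genes had at least 10 counts in every library and passed the filter on low counts in all 8 comparisons. CDKN1A (p21) was the most abundant in the spheres, at 173 ± 4.2 FPKM (SD, n = 3) in MI TGFβ and 181 ± 3.45 FPKM in MII Ctrl. It made up 86.6% of the summed FPKM of the 8 genes in MI Ctrl, 89.4% in MI TGFβ, 92.5% in MII Ctrl and 93.0% in MII TGFβ. In MDA-MB-231 its share was 21.6% in WT, 15.7% in SLUG KO, 30.9% in Csi and 35.1% in siSMAD2/3/4. There CDKN3, CDKN2D and CDKN2C each contributed between 9.87% and 42.3%, and CDKN3 was the largest in SLUG KO at 42.3% ± 1.82. In WT, CDKN3 took 31.4% ± 16.5, a spread set by replicate 2. Shares depend on the length used: CDKN1B has 9255 summed exon bases but a canonical transcript of 2411. With canonical lengths the CDKN1A share became 76.5% to 87.2% in the spheres and 11% to 27.4% in MDA-MB-231. The order within MDA-MB-231 changed too: in Csi, CDKN2C was then the largest at 34.4%, against 22.9% for CDKN1A. CDKN2D was then at 7.7% in SLUG KO.

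Across the 8 groups each gene had its own order. CDKN1A ran from 633 ± 20.7 CPM in MII TGFβ through 541 ± 10.3 in MII Ctrl, 519 ± 12.6 in MI TGFβ and 388 ± 7.0 in MI Ctrl to 123 to 135 in the siSMAD2/3/4 libraries, 115 to 128 in those of Csi, 62.3 ± 12.9 in WT and 38 ± 3.75 in SLUG KO. Only siSMAD2/3/4 and Csi overlapped among neighbours in this order. CDKN1B (p27) was the flattest, from 86.7 ± 1.92 CPM in MI Ctrl to 42.3 ± 10.1 CPM in WT, and 4 of its 7 neighbouring pairs overlapped.

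CDKN1C (p57) ran the other way, highest in siSMAD2/3/4 at 46.5 ± 1.40 CPM, then Csi at 22.5 ± 1.65 and SLUG KO at 20.1 ± 2.75, which overlapped, then MII Ctrl and WT at 6.88 ± 1.31 and 6.71 ± 0.546, which overlapped as well. It was lowest in MI TGFβ and MII TGFβ, at 1.94 ± 0.440 and 1.93 ± 0.106 CPM. CDKN2C (p18) was highest in Csi at 85.5 ± 1.37 CPM and lowest in MII Ctrl at 1.96 ± 0.170 CPM, and CDKN2D (p19) was highest in Csi too, at 41.5 ± 4.10 CPM. The 4 sphere groups were not separated for CDKN2D, with means of 3.65 to 4.69 CPM and overlapping ranges. CDKN3 ranged from 1.77 ± 0.442 CPM in MII Ctrl to 62.8 ± 2.44 in SLUG KO, and all neighbours from Csi down were separated. Over the 6 genes, 17 of 42 neighbouring pairs overlapped, and the share over all genes was not counted. Csi and siSMAD2/3/4 carry another batch label than the other 18 libraries, so the level of those groups against the rest and the batch cannot be told apart.

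The first comparison asked how the genes responded to TGFβ in each sphere line. CDKN1A rose and CDKN1C fell in both lines, and CDKN3 rose in both. CDKN1B fell in MI-spheres and CDKN2C rose in MII-spheres. In MI-spheres 4 of the 6 genes tested were called, 2 higher and 2 lower, where 56% of all 16863 genes tested were called, 28.7% higher and 27.4% lower. In MII-spheres 4 of 6 were called, 3 higher and 1 lower, where 57.6% of 16396 genes were, 29.9% higher and 27.6% lower. Beside shares of this size the number of calls says little, and the direction and size for each gene are given. The basal marker sum rose over the same contrasts, from 3470 to 3540 CPM to 6040 to 6290 CPM in MI-spheres and from 1700 to 1750 CPM to 3420 to 3550 CPM in MII-spheres, and its part in the results was not tested.

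CDKN1A (ENSG00000124762.14, chromosome 6 from 36676460 to 36687337, plus strand) was at 382, 386 and 395 CPM in MI Ctrl and 530, 505 and 520 in MI TGFβ. In MII-spheres it was at 540, 552 and 531 CPM without and 650, 610 and 638 with TGFβ. The groups did not overlap in either line. The rise was 1.26-fold in MI-spheres (log2 fold change 0.34, SE 0.0487, edgeR adjusted p = 5.61e-06) and 1.14-fold in MII-spheres (0.19, SE 0.0339, adjusted p = 4.19e-06). Scaled to library totals in place of TMM, the rise in MII-spheres was 0.058 on the log2 scale and not called (adjusted p = 0.122). That scaling moved the median of all genes to -0.15 in both lines, from -0.0165 and -0.0179.

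CDKN1C (ENSG00000129757.15, chromosome 11 from 2883213 to 2885775, minus strand), an imprinted gene, moved against p21. Raw counts were 80, 76 and 62 in MI Ctrl and 41, 32 and 50 in MI TGFβ, or 3.08, 3.66 and 3.22 against 2.25, 1.43 and 2.13 CPM. In MII-spheres they were 113, 233 and 97 without and 27, 29 and 30 with TGFβ, or 7.48, 7.79 and 5.38 against 1.83, 1.93 and 2.04 CPM. In both lines every TGFβ library lay below every Ctrl library. The fall was 1.82-fold in MI-spheres (log2 fold change -0.86, SE 0.211, edgeR adjusted p = 0.00157) and 3.68-fold in MII-spheres (-1.88, SE 0.191, adjusted p = 3.48e-12). CDKN1B (ENSG00000111276.12, chromosome 12 from 12685498 to 12722369, plus strand), a gene whose product is regulated largely by protein turnover, was 1.2-fold lower in MI TGFβ (-0.26, SE 0.0548, adjusted p = 0.00041). Its libraries lay at 85.8, 85.3 and 88.9 CPM in MI Ctrl and 73.8, 74.9 and 80.9 in MI TGFβ, with no overlap. In MII-spheres its difference was -0.10 (SE 0.0524, adjusted p = 0.0851), and with a filter of at least 10 counts in every library it was -0.14 and called (adjusted p = 0.0175).

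Of the INK4 genes with counts, CDKN2C (ENSG00000123080.12, chromosome 1 from 50960745 to 50974634, plus strand) was at 1.98, 1.77 and 2.11 CPM in MII Ctrl and 5.07, 3.86 and 4.69 in MII TGFβ, groups that did not overlap. This is a 2.28-fold rise (log2 fold change 1.19, SE 0.206, edgeR adjusted p = 2.07e-06), on raw counts of 30 to 53 and 58 to 75 per library. In MI-spheres it lay at 5.82, 5.68 and 4.88 CPM without and 6.58, 5.37 and 7.15 with TGFβ, which overlap (0.13, SE 0.14, adjusted p = 0.437). CDKN2D (ENSG00000129355.7, chromosome 19 from 10566460 to 10569059, minus strand) was not called in either line, with differences of -0.17 (SE 0.155, adjusted p = 0.351) and 0.32 (SE 0.188, adjusted p = 0.141), though without MII TGFβ replicate 2 the latter was 0.49 and called (adjusted p = 0.0373).

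CDKN3 (ENSG00000100526.20, chromosome 14 from 54396849 to 54420218, plus strand) was at 7.21, 7.60 and 9.19 CPM in MI Ctrl and 11.6, 9.99 and 13.5 in MI TGFβ. In MII-spheres it was at 2.18, 1.30 and 1.83 CPM without and 5.07, 5.86 and 5.77 with TGFβ. Neither line overlapped between groups. It rose 1.39-fold in MI-spheres (log2 fold change 0.47, SE 0.124, edgeR adjusted p = 0.00281) and 3.20-fold in MII-spheres (1.68, SE 0.206, adjusted p = 8.48e-10).

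The difference between the 2 responses was tested as an interaction over the 12 sphere libraries, where 22.4% of 18591 genes tested were called, 12.6% with a higher and 9.75% with a lower response in MII-spheres. It was called for 3 of the 6 genes, 2 higher and 1 lower. The response of MII- minus that of MI-spheres was -1.0 on the log2 scale for CDKN1C (SE 0.291, edgeR adjusted p = 0.00956), 1.07 for CDKN2C (SE 0.238, adjusted p = 0.000669) and 1.22 for CDKN3 (SE 0.235, adjusted p = 0.000107). In all 3 the response as a ratio was larger in the HRAS-transformed line, downward for p57 and upward for p18 and KAP. The lines started from different levels. Mean CPM of CDKN3 went from 8.0 to 11.7 in MI-spheres and from 1.77 to 5.57 in MII-spheres. For CDKN2C the means were 5.46 and 6.37 against 1.96 and 4.54, and for CDKN1C 3.32 and 1.94 against 6.88 and 1.93. For CDKN1A it was -0.14 (SE 0.0595, adjusted p = 0.0953), for CDKN1B 0.17 (SE 0.0759, adjusted p = 0.117) and for CDKN2D 0.51 (SE 0.249, adjusted p = 0.153), none called. CDKN1A was called by DESeq2 (-0.15, adjusted p = 0.0185) and without MI TGFβ replicate 2 (adjusted p = 0.0142) or 3 (adjusted p = 0.00744).

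**Figure D1:**
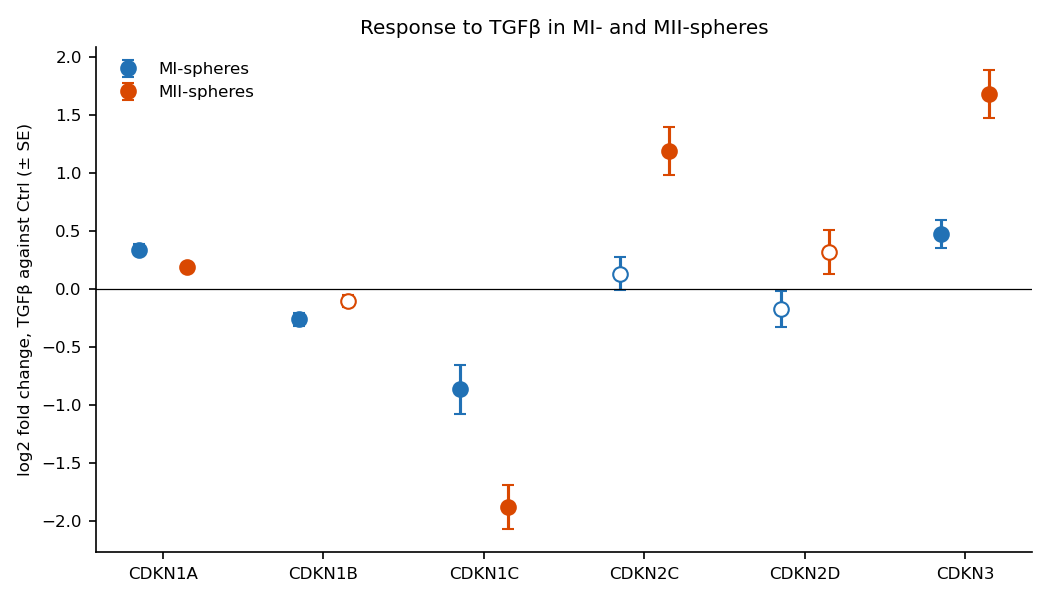
Log2 fold change of TGFβ against Ctrl ± SE (edgeR, n = 3 against 3 libraries) for 6 CDK inhibitor genes in MI-spheres (blue) and MII-spheres (orange). Filled points have an adjusted p under 0.05; CDKN1C falls further and CDKN2C and CDKN3 rise further in MII-spheres.

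Lists of genes that work with the inhibitors were counted in the same fits. Over all genes tested there, 28.7% rose and 27.4% fell in MI-spheres, and 29.9% rose and 27.6% fell in MII-spheres. Of 12 cyclins and CDKs that the inhibitors bind, 11 were tested in the spheres. With TGFβ, 5 rose and 4 fell in MI-spheres (median log2 fold change 0.119, against -0.0165 over all genes) and 10 rose and 0 fell in MII-spheres (0.818, against -0.0179). CDK1 rose 2.39 and CCNA2 (cyclin A2) 2.30 on the log2 scale in MII-spheres, whereas in MI-spheres CCNE2 (cyclin E2) fell by 1.16, CCNE1 fell by 0.79 and CDK4, the target of INK4 proteins, rose 0.71. Among 20 G2/M and mitotic genes, 10 of 19 tested rose and 1 fell in MI-spheres, and 16 of 18 rose and 1 fell in MII-spheres, with a median of 1.52. The median log2 CPM over the genes of that list was 2.02 to 2.24 in the MII Ctrl libraries, 3.77 to 3.83 in MII TGFβ, 4.16 to 4.26 in MI Ctrl and 4.38 to 4.55 in MI TGFβ, which is also the order of CDKN3. The part of cell-cycle position in the CDKN3 and CDKN2C changes was not tested. Of 14 genes for turnover of p21 and p27, all tested, 8 rose and 2 fell in MI-spheres and 13 rose and 0 fell in MII-spheres. These included SKP2, the ubiquitin ligase subunit that recognises p27 (0.73 on the log2 scale in MI-spheres), and DTL, which targets p21 (-0.38 in MI-spheres and 3.21 in MII-spheres).

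Among 20 targets of p53, the factor best known for inducing p21, 14 rose and 3 fell in MI-spheres, with a median of 0.274. In MII-spheres 5 rose and 5 fell, with a median of -0.000161. Over all genes, 28.7% rose and 27.4% fell in MI-spheres, and 29.9% and 27.6% in MII-spheres. The MII-sphere counts of p53 targets are near those shares. FAS, a death receptor, rose in both lines (0.75 and 0.39 on the log2 scale), and BBC3 (PUMA) fell in both (-0.81 and -0.86). GDF15, a stress cytokine, fell by 3.46 in MI-spheres and by 0.62 in MII-spheres. Of 26 transcriptional regulators of CDK inhibitor genes, 24 were tested; 4 rose and 11 fell in MI-spheres, and 8 rose and 12 fell in MII-spheres. TP63 had the largest rise called in both lines, 0.69 in MI-spheres and 2.11 in MII-spheres (0.621 CPM in MII Ctrl and 2.65 in MII TGFβ). KLF4, an activator of CDKN1A, fell by 2.00 in MI-spheres, SMAD3 fell by 1.27, and MYC, a repressor of CDK inhibitor genes, rose 0.47 there. CBX7 had the largest fall called in MII-spheres, by 1.24. E2F1 rose 1.62 and ID3, an inhibitor of helix-loop-helix factors, fell by 0.87 in MII-spheres.

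The neighbours of CDKN1C on chromosome 11, a domain of imprinted genes, gave 2 higher and 2 lower of 8 tested in MI-spheres, beside 28.7% higher and 27.4% lower over all genes, and 3 and 3 in MII-spheres, beside 29.9% and 27.6%. The shares are near those over all genes. KCNQ1OT1, the long noncoding RNA of that domain, fell with TGFβ by 0.80 in MI-spheres (SE 0.105, edgeR adjusted p = 1.77e-06) and by 0.91 in MII-spheres (SE 0.0663, adjusted p = 4.57e-17). PHLDA2, a growth-limiting imprinted gene, fell by 0.77 and 0.61, and CD81, a tetraspanin gene, rose 0.41 and 0.33.

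The second comparison set MII- against MI-spheres. Without TGFβ, 5 of the 6 genes were called, 2 higher and 3 lower, where 64.2% of 17862 genes were, 31.7% higher and 32.5% lower. CDKN1A was 1.41-fold higher in MII Ctrl (log2 fold change 0.49, SE 0.0343, edgeR adjusted p = 1.09e-18) and CDKN1C 2.11-fold higher (1.08, SE 0.154, adjusted p = 1.74e-08). CDKN1B was 1.19-fold lower (-0.26, SE 0.0467, adjusted p = 3.59e-06), CDKN2C 2.81-fold lower (-1.49, SE 0.181, adjusted p = 2.42e-10) and CDKN3 4.66-fold lower (-2.22, SE 0.175, adjusted p = 1.26e-16). In each of these 5 the libraries of the lines did not overlap, and the share of all genes separated in this way was not counted. CDKN2D was at -0.37 (SE 0.169, adjusted p = 0.0522) and was called without MI Ctrl replicate 2 (adjusted p = 0.0456) or 3 (0.0262), without MII Ctrl replicate 1 (0.0141) and with no filter on low counts (0.0434). Beside them, 19 of 19 mitotic genes tested and 10 of 11 cyclins and CDKs were lower in MII Ctrl, CDK6 alone being higher (0.52), and 13 of 20 p53 targets were higher and 2 lower.

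With TGFβ, 3 of 6 genes were called, 1 higher and 2 lower, against 62.7% of 15878 genes, 31.1% higher and 31.6% lower. CDKN1A remained higher in MII-spheres (0.36, SE 0.0462, edgeR adjusted p = 4e-07) and CDKN3 lower (-0.99, SE 0.137, adjusted p = 1.17e-06). CDKN2C was 1.33-fold lower (-0.41, SE 0.162, adjusted p = 0.0321), a call lost with DESeq2 (adjusted p = 0.145), with library totals (0.0839) and without MI TGFβ replicate 1 (0.0641) or 3 (0.0953) or MII TGFβ replicate 2 (0.152) or 3 (0.0536). CDKN1C, 2.11-fold apart before TGFβ, was at 1.94 ± 0.440 and 1.93 ± 0.106 CPM after it (0.08, SE 0.267, adjusted p = 0.811). These comparisons share their sphere libraries with those of TGFβ, so they are not independent of each other. HRAS itself was 2.45 higher on the log2 scale in MII Ctrl (SE 0.0437, adjusted p = 1.23e-45).

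In MDA-MB-231, libraries labelled SLUG KO were compared with WT. CDKN1C was higher and CDKN2C lower in SLUG KO, 2 of the 6 genes called, where 3.33% of 17428 genes tested were, 1.45% higher and 1.89% lower. CDKN1C was at 6.27, 6.55 and 7.32 CPM in WT and 23.0, 17.6 and 19.6 in SLUG KO, a 2.93-fold difference (log2 fold change 1.55, SE 0.187, edgeR adjusted p = 0.00748). CDKN2C was at 48.4, 65.6 and 57.5 CPM in WT and 31.9, 21.2 and 24.9 in SLUG KO, a 2.23-fold difference downward (-1.16, SE 0.215, adjusted p = 0.0342). Neither gene overlapped between the groups.

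The other 4 genes were not called. CDKN1A was at 48.5, 74.0 and 64.5 CPM in WT and 42.3, 36.4 and 35.4 in SLUG KO, without overlap (-0.74, SE 0.203, edgeR adjusted p = 0.117). CDKN2D was at 25.6, 30.7 and 31.3 CPM and 18.4, 18.2 and 17.2, again without overlap (-0.73, SE 0.167, adjusted p = 0.0699). CDKN3 was at 70.5, 18.8 and 90.7 CPM in WT and 60 to 64.3 in SLUG KO (0.04, SE 0.488, adjusted p = 0.968), and CDKN1B was at 0.24 (SE 0.212, adjusted p = 0.563).

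Without WT replicate 2, 5 of the 6 genes were called, and so were 31.2% of 17909 genes tested. CDKN1C stayed at 1.55 (SE 0.139, edgeR adjusted p = 4.93e-07) and CDKN2C at -1.03 (SE 0.131, adjusted p = 2.06e-05). CDKN1A (-0.58, adjusted p = 0.00118) and CDKN2D (-0.68, adjusted p = 0.000184) were then called lower. CDKN3 turned to -0.37 (SE 0.1, adjusted p = 0.0107). Leaving out SLUG KO replicate 1 or 3 ended both calls (CDKN1C adjusted p = 0.0658 and 0.0574, CDKN2C 0.107 and 0.225), with 0.725% and 0.751% of all genes called. Leaving out SLUG KO replicate 2, WT replicate 1 or WT replicate 3 left CDKN1C alone called (CDKN2C adjusted p = 0.193, 0.0841 and 0.0739), with 0.73%, 1.03% and 2.06% of all genes. In 1 fit of the 18 libraries of the batch, which share 1 estimate of the spread, CDKN1A and CDKN2D were called as well, 4 of 6 genes against 19.9% of all genes.

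Around the inhibitors, 0 of 12 cyclins and CDKs, 0 of 20 mitotic genes and 0 of 19 p53 targets were called in SLUG KO, where the 3.33% called over all genes leaves little room for calls in lists of this size. Across the mitotic list the log2 fold changes had their median at -0.445, against -0.0519 over all genes. CDKN2C was lower too, whereas CDKN3 was at 0.04 with all libraries. The median log2 CPM over that list was 6.99, 7.02 and 7.21 in the WT libraries and 6.94, 6.81 and 6.91 in SLUG KO. The part of cell-cycle position was not tested. Of 14 turnover genes, CDC20 was lower (-0.97 on the log2 scale, edgeR adjusted p = 0.035), and of 25 regulators tested KLF4 was higher (0.88, adjusted p = 0.0474). None of the 8 chromosome 11 neighbours tested was called beside CDKN1C, with a median of -0.0448.

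Silencing of SMAD2, SMAD3 and SMAD4 was compared with Csi, which asks what these SMADs contribute in MDA-MB-231 without added TGFβ. Here 5 of the 6 genes were called, 2 higher and 3 lower, where 36% of 17696 genes were, 16.3% higher and 19.7% lower. CDKN1C was at 23.5, 23.4 and 20.6 CPM in Csi and 45.6, 48.1 and 45.8 in siSMAD2/3/4, groups far apart, a 2.06-fold rise (log2 fold change 1.04, SE 0.0638, edgeR adjusted p = 2.78e-14). CDKN1B rose 1.16-fold (0.21, SE 0.0527, adjusted p = 0.00195), from 53.6, 51.7 and 55.7 to 58.9, 63.6 and 64.5 CPM, without overlap. CDKN1A, at 115, 120 and 128 against 135, 127 and 123 CPM, overlapped and was not called (0.08, SE 0.0445, adjusted p = 0.17).

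CDKN2C was at 85.6, 84.1 and 86.9 CPM in Csi and 59.4, 58.0 and 56.8 in siSMAD2/3/4, a fall of 1.48-fold (-0.56, SE 0.0462, edgeR adjusted p = 1.82e-11). CDKN2D lay at 38.2, 40.2 and 46.1 CPM against 35.4, 35.2 and 30.5 (-0.31, SE 0.0668, adjusted p = 0.000462). CDKN3 lay at 33, 38.6 and 35.8 CPM against 23.5, 20.2 and 22.6, a fall of 1.63-fold (-0.70, SE 0.0692, adjusted p = 1.02e-09). None of these 3 genes overlapped between the groups, and the share of all genes without overlap was not counted. By file labels siSMAD2/3/4 replicates 1 and 2 came from another flow cell than the remaining 4 libraries. With flow cell as a term the same 5 genes were called (CDKN1C 1.03, CDKN2C -0.58, CDKN3 -0.66), and so they were with the 4 libraries of 1 flow cell alone, where the single siSMAD2/3/4 library is taken to vary as Csi does.

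Of the 12 cyclins and CDKs, 10 fell with siSMAD2/3/4 and CCND3 (cyclin D3) alone rose (0.42); 19 of 20 mitotic genes fell, with a median of -0.619 against 0.00381 over all genes. The median log2 CPM over the mitotic list was 6.87 to 6.99 in Csi and 6.33 to 6.34 in siSMAD2/3/4, so it moved with CDKN3 and CDKN2C here too, and its part was not tested. Of 14 turnover genes 8 fell and 1 rose, led downward by DTL (-1.42), and of 20 p53 targets 11 fell and 4 rose. Near CDKN1C, 3 of 9 neighbours rose, among them KCNQ1OT1 (0.27, edgeR adjusted p = 0.0097) and SLC22A18 (0.39, adjusted p = 0.000393). The 2 that fell were TSSC4 (-0.2, edgeR adjusted p = 0.0277) and NAP1L4 (-0.15, adjusted p = 0.00302), and the median of these neighbours was 0.0148. Over all genes tested, 16.3% rose and 19.7% fell.

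**Figure D2:**
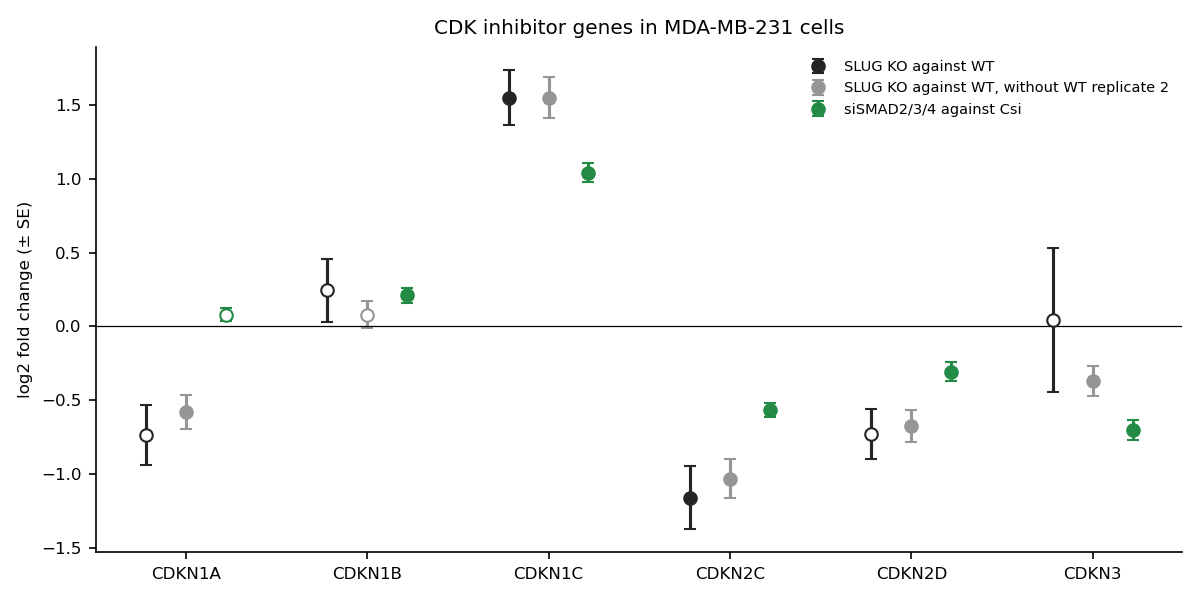
Log2 fold change ± SE (edgeR) of 6 CDK inhibitor genes in SLUG KO against WT with all libraries (black) and without WT replicate 2 (grey), and in siSMAD2/3/4 against Csi (green). Filled points have an adjusted p under 0.05; CDKN1C is higher and CDKN2C lower in all 3 fits, and CDKN3 in SLUG KO changes sign without WT replicate 2.

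The unstimulated controls of the tumour line and of MCF-10A were set side by side as WT against MI Ctrl. Cell line and culture format differ together here and cannot be told apart. All 6 genes were called, 4 higher and 2 lower, where 54% of 18732 genes were, 28.1% higher and 25.9% lower. CDKN1A was 6.23-fold lower in WT (log2 fold change -2.64, SE 0.207, edgeR adjusted p = 4.94e-05) and CDKN1B 2.06-fold lower (-1.04, SE 0.213, adjusted p = 0.0049). CDKN2C was 10.4-fold higher (3.38, SE 0.205, adjusted p = 1.73e-05), CDKN3 7.46-fold (2.90, SE 0.543, adjusted p = 0.00322), CDKN2D 6.19-fold (2.63, SE 0.208, adjusted p = 5.17e-05) and CDKN1C 2.01-fold (1.01, SE 0.203, adjusted p = 0.00453). The 6 calls and their directions were the same without WT replicate 2. Of 20 p53 targets 15 were lower and 0 higher in WT. MDA-MB-231 carries mutant p53, and the part of that in these differences was not tested. In the other lists, 19 of 20 mitotic genes and 11 of 12 cyclins and CDKs were higher.

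The protein-coding genes whose log2 CPM followed each inhibitor most closely were sought among 10898 genes with at least 10 counts in every library. Over the 24 libraries these were DEPDC1 (Pearson's r = 0.992), TTK (0.988) and CHEK1 (0.987) for CDKN3, the latter pair being checkpoint kinases of dividing cells. For CDKN2C they were HMGA2 (0.992), EXOSC10 (0.99) and FOXM1 (0.99), for CDKN2D TEAD1, SRF and HCFC1R1 (0.984 to 0.986), and for CDKN1A CXXC5, PIK3R3 and RHOB (0.986 to 0.989). CDKN1B followed SLC25A36, PLEKHA1 and PDE4D (0.964 to 0.978) and CDKN1C TCTA, BRI3 and KANSL3 (0.944 to 0.959). The libraries fall into separate cell lines and batches, so these values largely order lines and are given as descriptions. Over the 12 sphere libraries alone, the closest 3 to CDKN3 were DLGAP5, a mitotic spindle gene (r = 0.993), SGMS2 (0.989) and ADAMTS6 (0.989). For CDKN2C they were TRAIP (0.987), DLGAP5 (0.983) and KIF14 (0.982). The sphere libraries fall into separate lines and treatments, so these values too are given as descriptions. CDKN1A followed IDH2 (0.997), CDKN1B TOGARAM1 (0.967), CDKN1C HMBOX1 (0.961) and CDKN2D VPS39 (0.852), the last the loosest of the 6.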

How the data were processed

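RNA was sequenced from 24 libraries (TruSeq stranded total RNA), 3 in each of 8 groups taken from the sample titles; 16 ATAC-seq samples were not analysed here. According to the study's methods the authors used Trimmomatic for trimming, ran STAR on the GRCh38 genome and obtained counts with featureCounts. Per the file headers this was version 2.0.0 with GENCODE 38 (pairs with both ends mapped, mapping quality of at least 30, no strand option). The deposited values are raw counts per gene, not normalized. WT was counted with the feature type left at its default. GENCODE 44 gave symbols for 60463 of 60708 genes (99.6%). The 8 genes and the gene lists were chosen with earlier results of these data known.

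Counts were tested with edgeR 4.0.16 (R 4.3.3): TMM, filterByExpr, glmQLFit and glmQLFTest on the libraries compared, Benjamini-Hochberg over all genes tested, called at an adjusted p under 0.05. The fit was also run on simulated counts drawn independently for each library, which hold no outlying library such as WT replicate 2. The outcome of that run is not given here. Alternatives were DESeq2 1.42.0, its size factors, library totals, other low-count filters, a replicate block, flow cell, pooled fits and leaving out each library; canonical transcript length for shares was added after seeing the data. Named genes were the 8 genes, checks of the targets, up to 2 genes per direction of largest fold change among those called in each list, and the 3 genes with the highest correlation; genes named for their counts near CDKN2A come from the list of its neighbours. Depth was 14124688 to 38406952 counts per library; 3 libraries per group limit the precision.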

Additional observations from a re-analysis of the deposited data

Results flagged for a closer look

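For 3 genes the response to TGFβ differed between MI- and MII-spheres by the interaction test over 12 libraries. The response of MII- minus that of MI-spheres was -1.0 on the log2 scale for CDKN1C (edgeR adjusted p = 0.00956), whose 3 TGFβ libraries lay below all 3 Ctrl libraries in both lines. It was 1.07 for CDKN2C (adjusted p = 0.000669), for which the libraries of MI-spheres overlapped and those of MII-spheres did not. It was 1.22 for CDKN3 (adjusted p = 0.000107), higher with TGFβ in 3 of 3 libraries of each line.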

How the results depend on the processing

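The number of genes called was within 1.5 times the reported count in every comparison and alternative run, except for SLUG KO against WT. There the 2 calls became 1 with a replicate block, 4 with the 18 libraries of 1 batch in 1 fit, and 0 to 5 when 1 library was left out (5 without WT replicate 2, where 31.2% of all genes were called). The block ended the CDKN2C call (adjusted p = 0.131) and changed no other. Same-numbered libraries deviated from their group means with correlations of -0.185 to 0.0655. The labels do not say whether they were prepared together, and correlations of this kind cannot show it. Of the values for single genes and shares under alternatives, 634 kept direction and side of the threshold, 15 lost and 15 gained a call, 7 shares moved, and 5 changed sign: with library totals, CDKN2C in MI-spheres (-0.00834), CDKN1B in stimulated MII against MI (0.000124) and CDKN3 in SLUG KO (-0.00688); CDKN1C in stimulated MII against MI without MI TGFβ replicate 2 (-0.10, range -0.10 to 0.177 when 1 library was left out); and CDKN3 in SLUG KO without WT replicate 2 (-0.37, range -0.37 to 0.458). The cause was not tested. Library totals moved the median of all genes to -0.155 and -0.15 in the TGFβ comparisons, 0.109 in unstimulated MII against MI and 0.186 in WT against MI Ctrl. With canonical lengths the CDKN1A share moved to 76.5% to 87.2% in the spheres. Raw counts as low as 27 for CDKN1C, 30 for CDKN2C and 33 for CDKN3 per library limit the precision in MII-spheres.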
